A study of Mus musculus with 2 samples.

Results

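Chemokines are small secreted proteins that guide the movement of cells. They are sorted by the spacing of their first conserved cysteines into CC chemokines, in which these are adjacent, and CXC chemokines, in which another residue lies between them. They act through receptors coupled to inhibitory G proteins. In the brain, several CC chemokines are known as products of activated microglia, the resident macrophages, whereas CXCL12 is made mainly by cells of vessels and meninges and by some neurons. Described here are 10 chemokine genes of the mouse, 7 of the CC class (Ccl2, Ccl3, Ccl4, Ccl5, Ccl6, Ccl9 and Ccl12) and 3 of the CXC class (Cxcl12, Cxcl14 and Cxcl16), out of 18193 genes on the array. The genes were listed by name, with earlier results of these data known. All 16 probe sets that carry 1 of these symbols alone were used. A probe set is a group of short probes on the array that together measure 1 transcript.

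RNA came from the optic nerve and optic tract, which are white matter, of male wild-type (WT) mice 13 to 15 weeks of age and of male CD47 null mice (Cd47-/-, here CD47 KO) 12 to 15 weeks of age. CD47 is the ligand of the inhibitory receptor SIRPα of microglia, and the comparison asks how its loss alters gene expression in white matter. The deletion was carried by all cells of the animal, and the labels name no other allele and no treatment. Each genotype was measured by 1 array that held a pool of RNA from 5 WT or 4 CD47 KO mice by the series' description (4 and 5 by the labelling protocol), so that these arrays allow no test of genotypes and hold no replicate of any value.

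Values are MAS5 signals, the brightness of a probe set on a linear scale after each array was scaled to the same mean. Signals under 106.4, the median of all signals of both arrays, were set to that floor, and where 1 array fell under it only a bound can be given, written as "at least". Words such as bright and dim refer to signals of probe sets and not to amounts of RNA. Summed signals of a list follow its brightest genes and do not give the amount of a cell type. The targeted gene was lower in CD47 KO by the 4 of its 5 probe sets that reached above the floor, with 34.3% to 39.5% of the WT signal left in the 3 brightest. Where these probe sets lie relative to the deletion was not known. Markers of oligodendrocytes were bright in both arrays, as in Mbp (51510 in WT and 55271 in CD47 KO), and all 10 listed neuron markers were above the floor too. Different probe sets of the same gene were the sole repeat measurement: over 11653 pairs in 4740 genes the difference between their log2 ratios had a root mean square of 0.36, and 95% of pairs differed by less than 0.74. This holds no variation between mice or between hybridisations.

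The promoters of 3 neighbouring members are shown first, because these genes lie side by side on chromosome 11 and yet differed in their ratios. Each is the 250 bases before the transcription start, 5′ to 3′ on the gene's own strand, taken from RefSeq on assembly GRCm38.p6. For Ccl3 (chr11:83649379-83649628, minus strand) the capitals mark GAGGAA read on the opposite strand, the core of the site known for PU.1, a transcription factor of macrophages and microglia. For Ccl6 (chr11:83593088-83593337, minus strand) and Ccl9 (chr11:83578637-83578886, minus strand) the capitals mark the exact stretches of at least 10 bases that both promoters hold.
Ccl3: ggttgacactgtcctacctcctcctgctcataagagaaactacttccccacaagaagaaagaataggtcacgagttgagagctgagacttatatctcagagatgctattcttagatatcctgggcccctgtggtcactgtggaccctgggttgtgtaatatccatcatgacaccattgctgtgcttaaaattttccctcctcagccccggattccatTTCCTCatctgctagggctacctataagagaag
Ccl6: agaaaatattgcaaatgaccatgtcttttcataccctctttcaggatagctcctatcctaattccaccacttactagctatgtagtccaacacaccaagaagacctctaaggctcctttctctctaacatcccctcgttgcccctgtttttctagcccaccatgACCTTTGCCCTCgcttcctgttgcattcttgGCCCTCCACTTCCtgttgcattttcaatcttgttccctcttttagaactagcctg
Ccl9: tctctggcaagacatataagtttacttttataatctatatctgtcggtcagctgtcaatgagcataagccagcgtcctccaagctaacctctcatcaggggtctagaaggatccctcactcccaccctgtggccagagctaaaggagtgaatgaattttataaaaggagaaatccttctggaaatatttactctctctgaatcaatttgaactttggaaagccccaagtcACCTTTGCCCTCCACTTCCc

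The table of promoters held 6 of the 10 members (Ccl3, Ccl6, Ccl9, Ccl12, Cxcl12 and Cxcl14). Ccl6 and Ccl9 shared a stretch of 12 bases and a stretch of 13 bases, which overlap in Ccl9 and lie apart in Ccl6. The letters GAGGAA, on either strand, were found in the promoters of Ccl3 and Ccl12, and in 23.3% of 32851 promoters of all genes, of which some genes have several. TATAAA was found in those of Ccl9 and Ccl12 (12.4% of all promoters). TGANTCA, a loose form of the AP-1 site with any middle base, was found in the promoter of Ccl9 (6.75% of all), as TGAATCA. A match to the NF-kB consensus was found in that of Ccl9 (7.25% of all). In Ccl9 the TATAAA matches at bases 94 to 89 and 92 to 87 before the start, on opposite strands, overlap each other. A further match in Ccl9 lies at bases 224 to 219, and no other motifs overlap. These matches describe the letters in this window and were tested for no link with the ratios.

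Of the 10 chemokine genes, 9 had a higher signal in CD47 KO than in WT white matter by their brightest probe set. Cxcl12 was lower by its brightest probe set and higher by the others. The signal was over 2-fold higher for 5 of them, Ccl3, Ccl4, Ccl6, Ccl5 and Ccl2, all of the CC class, and over 2-fold lower for none. Of all 12473 measured genes, those that exceeded the floor in 1 or both arrays, 1.21% were over 2-fold higher, 0.818% over 2-fold lower, and 46.8% had a log2 ratio above 0. The median log2 ratio was 1.06 over the 10 members and -0.02 over all measured genes. Among the 7933 genes with a mean signal between those of Ccl2 and Cxcl12, the dimmest and the brightest member, 1.22% were over 2-fold higher. By probe sets, 6 of 16 were over 2-fold higher, against 1.06% of 23846.

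**Figure D1:**
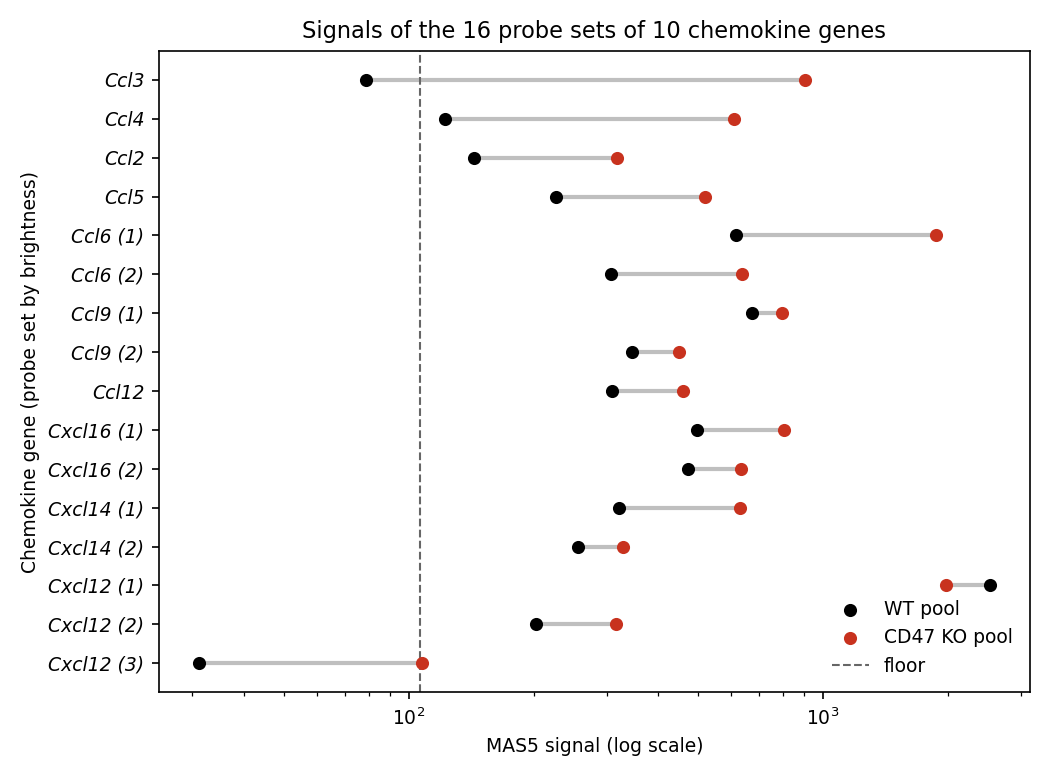
MAS5 signal (horizontal, log scale) of the 16 probe sets of the 10 chemokine genes, in black for WT and in red for CD47 KO; numbers in brackets order the probe sets of a gene by brightness, and a dashed line marks 106.4, the floor. The CD47 KO point lies to the right of the WT point in 15 of 16 probe sets, and the brightest probe set of Cxcl12 is the exception.

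Ccl3 and Ccl4 encode MIP-1α and MIP-1β, which activated macrophages and microglia release, and CCL3 acts through CCR1. Their ratios were the largest of the 10. The signal of Ccl3 (probe set 1419561_at) was 78.8 in WT, which is under the floor, and 906 in CD47 KO, at least 8.51-fold higher. The signal of Ccl4 (probe set 1421578_at) was 122 in WT and 611 in CD47 KO, 5.0-fold higher (log2 ratio 2.32), and it ranked 8th from the highest among the 11592 genes above the floor in both arrays. Both genes were thus close to background in WT, with a WT signal 1.15 times the floor for Ccl4, and well above it in CD47 KO. Their sizes depend on the floor: at the 60th percentile (a signal of 187) the bounds were at least 4.84-fold for Ccl3 and at least 3.27-fold for Ccl4, and at the 40th percentile (67.6) Ccl3 was measured on both sides, at 11.5-fold.

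Ccl5 encodes RANTES, which draws T cells, and Ccl2 encodes MCP-1, the main ligand of the monocyte receptor CCR2. The signal of Ccl5 (probe set 1418126_at) was 227 in WT and 517 in CD47 KO, 2.28-fold higher (log2 ratio 1.19). The signal of Ccl2 (probe set 1420380_at) was 144 in WT and 317 in CD47 KO, 2.21-fold higher (log2 ratio 1.14). Both were above the floor in both arrays and not far past the 2-fold mark. With the floor at the 60th percentile Ccl2 was at least 1.70-fold higher, and with 100 added to each signal in place of the floor the log2 ratios were 0.92 for Ccl5 and 0.78 for Ccl2. Ccl12 encodes MCP-5, a further ligand of CCR2 found in mice. Its signal (probe set 1419282_at) was 308 in WT and 459 in CD47 KO, 1.49-fold higher (log2 ratio 0.57).

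Ccl6 and Ccl9 are CC chemokine genes of rodents, made by myeloid cells, and their proteins act through CCR1. Each was measured by 2 probe sets. The signal of Ccl6 by its brighter probe set (1417266_at) was 617 in WT and 1870.5 in CD47 KO, 3.03-fold higher (log2 ratio 1.60). By the other (1420249_s_at), which is marked as able to match related transcripts, it was 308 in WT and 636 in CD47 KO, 2.07-fold higher (log2 ratio 1.05). Both probe sets of Ccl6 were thus past 2-fold, with ratios 0.55 apart on the log2 scale, within the range of 95% of probe set pairs. For Ccl9 the signal was 675 in WT and 797 in CD47 KO by the brighter probe set (1417936_at) and 346 and 448 by the other (1448898_at). These are 1.18-fold and 1.30-fold higher (log2 ratios 0.24 and 0.38), and by neither did Ccl9 differ as much as Ccl6 did by either of its own. Ccl9 ranked 1823rd from the highest among the genes above the floor in both arrays, and Ccl6 ranked 34th.

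Of the 3 CXC genes, Cxcl16 and Cxcl14 were higher in CD47 KO by every probe set, and the probe sets of Cxcl12 differed in direction. Cxcl16 encodes a chemokine that is made as a membrane protein, takes up oxidised lipoprotein and binds the receptor CXCR6. Its signal was 496 in WT and 806 in CD47 KO by the brighter probe set (1418718_at), 1.63-fold higher (log2 ratio 0.70), and 473 and 634 by the other (1449195_s_at), 1.34-fold higher (log2 ratio 0.42). Cxcl14 encodes a chemokine found in many tissues whose receptor is not settled. Its signal was 322 in WT and 632 in CD47 KO by the brighter probe set (1418457_at), 1.96-fold higher and just short of 2-fold (log2 ratio 0.97). By its other probe set (1418456_a_at) the signal was 256 in WT and 329 in CD47 KO, 1.29-fold higher (log2 ratio 0.36). Both genes were higher in CD47 KO by each probe set, and the size for Cxcl14 depended on which was read, with ratios 0.61 apart on the log2 scale.

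Cxcl12 encodes SDF-1, the ligand of CXCR4 and ACKR3, and its probe sets went in different directions. By the brightest (1448823_at) the signal was 2532 in WT and 1985 in CD47 KO, 1.28-fold lower (log2 ratio -0.35). By the next (1417574_at) it was 203 in WT and 316 in CD47 KO, 1.56-fold higher (log2 ratio 0.64). By the last (1439084_at) it was 31.1 in WT and 108 in CD47 KO, the latter just above the floor, which gives only a bound of at least 1.01-fold higher. The first and second were 0.99 apart on the log2 scale, more than the 0.74 that holds 95% of probe set pairs, so that no single direction can be given for Cxcl12. The median over its probe sets, with the bound counted at its value, was a log2 ratio of 0.017. The gene is known to yield transcripts with different 3′ ends; which of them each probe set reads was not examined.

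**Figure D2:**
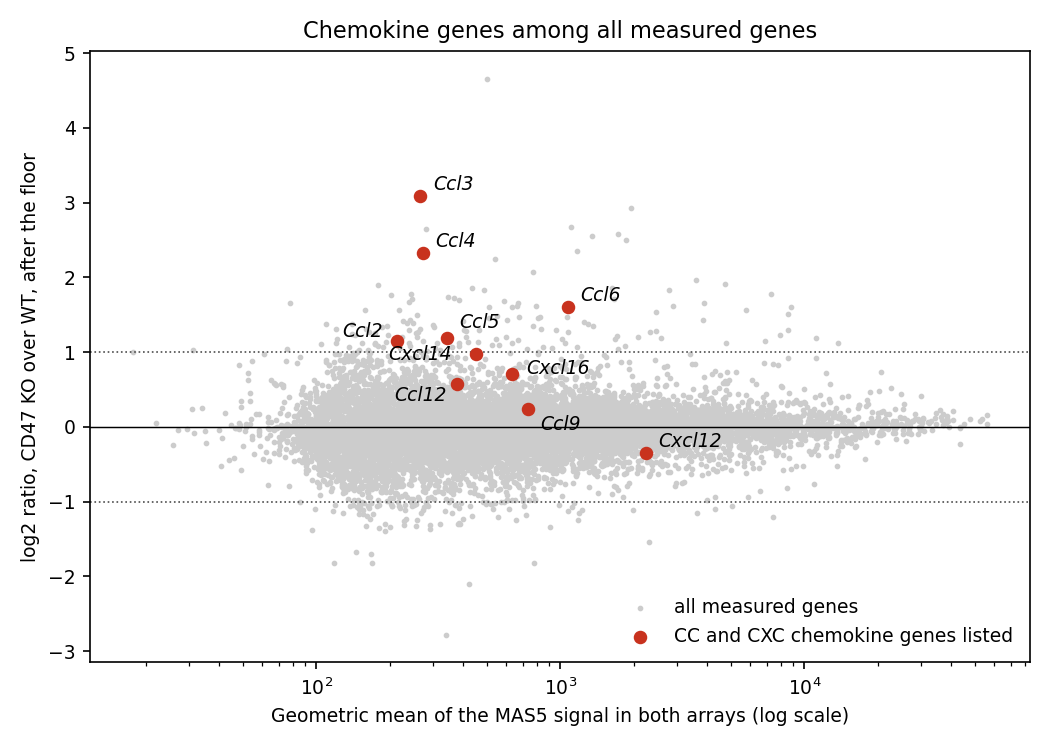
Log2 ratio of CD47 KO over WT after the floor (vertical) against the geometric mean signal of both arrays (horizontal, log scale) for the 12473 measured genes (grey), with the 10 chemokine genes in red, each by its brightest probe set; dotted lines mark 2-fold. Ccl3, for which the ratio is a bound, and Ccl4 lie far above most genes of like signal, Ccl6, Ccl5 and Ccl2 lie above the upper line, and Cxcl12 lies under 0.

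All 7 CC genes described here lie in runs of neighbouring chemokine genes on chromosome 11, and the ratios differed along them. In the order of the assembly, the run from Ccl5 over Ccl9, Ccl6 and Ccl3 to Ccl4 had log2 ratios of 1.19, 0.24, 1.60, at least 3.09 and 2.32. All 5 genes were higher in CD47 KO, 4 of them over 2-fold, and Ccl9 between Ccl5 and Ccl6 was not. Of all measured genes, 46.8% were above 0 and 1.21% over 2-fold higher. All 5 are among the members, which were chosen with earlier results of these data known. The run from Ccl2 holds members and other chemokines, so a contrast between the runs is no independent result. The run from Ccl2 over Ccl7, Ccl11, Ccl12 and Ccl8 to Ccl1 had 4 measured genes that went both ways, with log2 ratios of 1.14 for Ccl2, 0.14 for Ccl7, 0.57 for Ccl12 and -0.69 for Ccl8. Ccl11 and Ccl1 were under the floor in both arrays. Of the nearest 3 measured genes on either side of the first run that are not chemokines, those before it had log2 ratios from -0.59 to 0.29 and those after it from 0.39 to 0.78, with none past 2-fold. The highest of them, Wfdc17, was 420 in WT against 723 in CD47 KO.

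**Figure D3:**
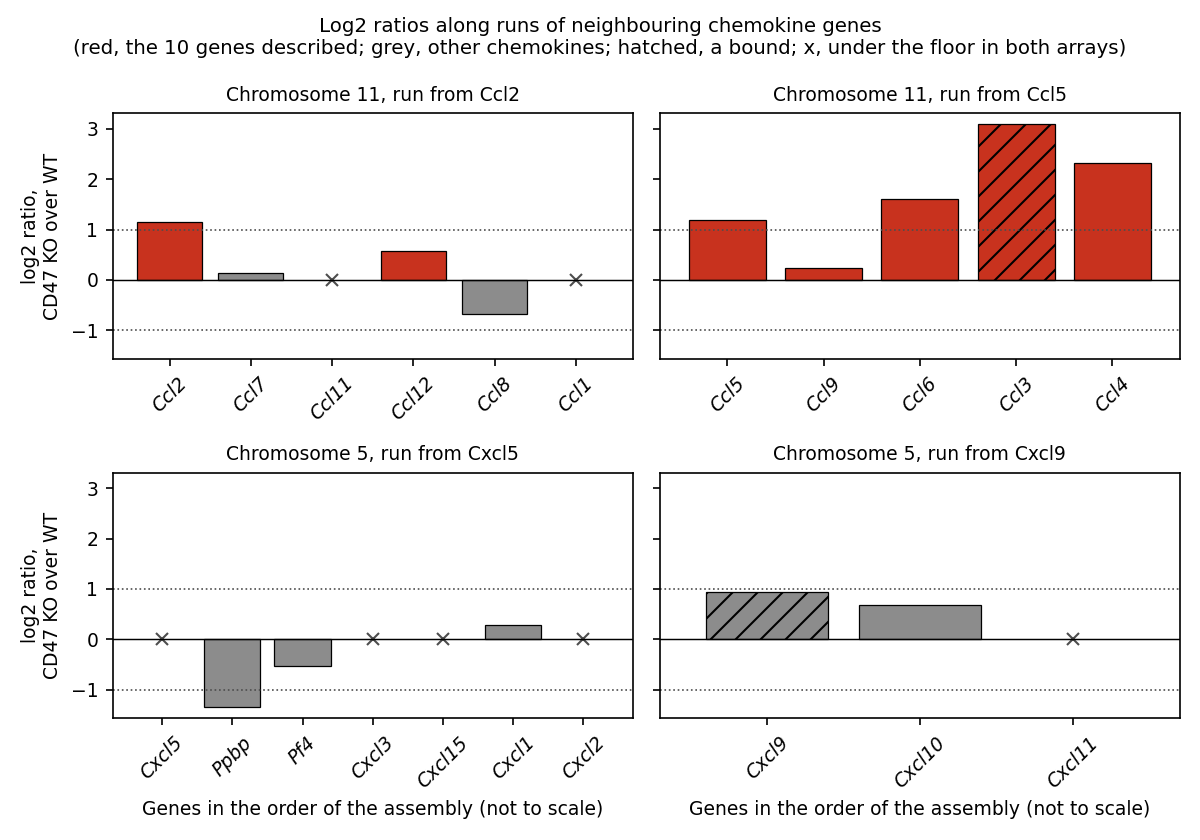
Log2 ratio of CD47 KO over WT (vertical) for chemokine genes in the order in which they lie on chromosomes 11 and 5 (horizontal, not to scale), in 4 runs of neighbouring genes; red bars are the genes described here, grey bars other chemokines, hatched bars bounds, and crosses genes under the floor in both arrays. The 5 genes from Ccl5 to Ccl4, all among those described here, lie above 0, as do 46.8% of all measured genes. The run from Ccl2 goes both ways and the run from Cxcl5 has its lowest value at Ppbp (-1.35).

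The rest of the chemokine family went both ways. The 10 members had been set apart from it with earlier results of these data known. A contrast with the members is therefore no independent result. Of 30 further chemokine genes listed, 25 had a probe set of their own and 13 were measured, with a median log2 ratio of -0.21. None was over 2-fold higher, 1 was over 2-fold lower, and 5 had a log2 ratio above 0 and 8 below, beside the 1.21%, 0.818% and 46.8% of all measured genes that were over 2-fold higher, over 2-fold lower and above 0. The gene past 2-fold was Ppbp, a chemokine of platelets, which gave 288 in WT and 113 in CD47 KO (2.56-fold lower), and the other platelet chemokine, Pf4, was 1.44-fold lower (1045 and 726). With the floor at the 60th percentile or 100 added to each signal Ppbp was not past 2-fold. Ccl8, a relative of Ccl2, went from 358 in WT to 222 in CD47 KO, 1.61-fold lower. Among the ligands of CXCR3, which are induced by interferon, Cxcl10 went from 690 in WT to 1106 in CD47 KO, 1.60-fold higher, and Cxcl9 from 98.3 to 203, at least 1.91-fold higher, while Cxcl11 did not exceed the floor. Nor did the neutrophil-attracting genes Cxcl2, Cxcl3 and Cxcl5, and Cxcl1 was 163 in WT and 198 in CD47 KO. Cx3cl1, the membrane-bound ligand of the microglial receptor CX3CR1, was 1.16-fold lower, at 554 in WT and 479 in CD47 KO.

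Receptors for the 10 chemokines were mostly dim. Of 24 receptor genes listed, 22 had a probe set of their own and 10 were measured, with a median log2 ratio of 0.05. Of these, 2 were over 2-fold higher and 0 over 2-fold lower, beside 1.21% and 0.818% of all measured genes. Cxcr4, the signalling receptor of CXCL12, was 106.0 in WT, just under the floor, and 256 in CD47 KO, at least 2.40-fold higher, and not past 2-fold under a floor at the 60th percentile. Ackr3, which takes up CXCL12 without G protein signalling, went from 1742 in WT to 1404 in CD47 KO, 1.24-fold lower. Ccr1, a receptor of CCL3, CCL5, CCL6 and CCL9, had a log2 ratio of 0.05, with 221 in WT and 229 in CD47 KO. Cxcr6, the receptor of CXCL16, was 93.4 in WT and 131 in CD47 KO, at least 1.23-fold higher. The brightest probe set of Ccr2, the receptor of CCL2 and CCL12, was under the floor in both arrays, and of its 3 others 1 was above the floor in WT only (113 and 87.7) and 1 in CD47 KO only (24.6 and 138). Besides Cxcr4, the receptor gene past 2-fold was Cx3cr1, which gave 856 in WT and 2180 in CD47 KO (2.55-fold higher), whose ligand is not among the 10.

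Genes that carry the signal of chemokine receptors inside leukocytes were compared as well. Of 32 listed, 27 were measured, with a median log2 ratio of 0.07, 17 above 0 and 10 below. Of all measured genes, 46.8% were above 0 and 1.21% over 2-fold higher. Over 2-fold higher were Rgs1, which ends G protein signalling in leukocytes, and Pik3r5, a regulatory subunit of the PI3 kinase that G proteins activate. Rgs1 went from 70.7 in WT to 276 in CD47 KO, at least 2.59-fold higher, and Pik3r5 from 104 to 217, at least 2.04-fold higher. Neither passed 2-fold under a floor at the 60th percentile. Dock2, an exchange factor for Rac in migrating leukocytes, went from 198 in WT to 336 in CD47 KO, 1.70-fold higher. Rac2, the Rac protein of blood cells, went from 181 to 308, also 1.70-fold higher, whereas the widely expressed Rac1 had a log2 ratio of -0.03. The lowest ratio of the list was that of Rgs14, which went from 268 in WT to 155 in CD47 KO, 1.73-fold lower.

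NF-kB is a transcription factor known to drive many chemokine genes. Of 14 genes listed for its subunits, its inhibitors and its activating kinase, 11 were measured. Their median log2 ratio was 0.22, with 8 above 0, 3 below and none past 2-fold in either direction. Of all measured genes, 46.8% were above 0, 1.21% over 2-fold higher and 0.818% over 2-fold lower. At those shares a list this short would hold few or none past 2-fold. The largest were Nfkb2 (184 in WT and 357 in CD47 KO, 1.93-fold higher), the inhibitor Tnfaip3 (197 and 380, 1.93-fold higher) and the inhibitor Nfkbie (178 and 296, 1.66-fold higher). Rela, the main activating subunit, was 1818 in WT and 1837 in CD47 KO. Among 7 proteases known to shed or trim chemokines 5 were measured, 3 above 0 and 2 below. None was past 2-fold, beside the same shares of all measured genes. Adam10, which cuts CXCL16 from the membrane, was 4986 in WT and 5015 in CD47 KO, and Adam17, another sheddase, went from 977 to 1292 (1.32-fold higher). Mmp2 and Dpp4, which trim the ends of chemokines, were 1.43-fold (817 and 573) and 1.40-fold (796 and 568) lower.

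**Figure D4:**
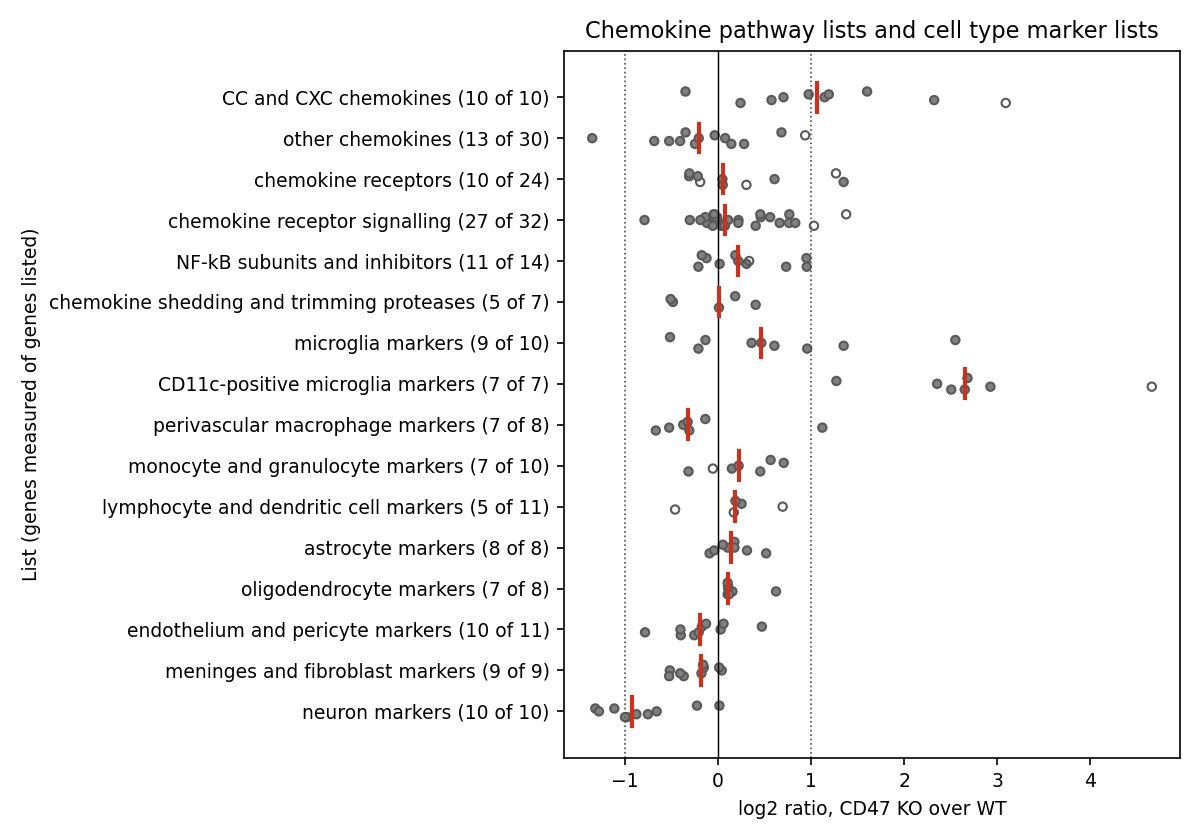
Log2 ratios (horizontal, CD47 KO against WT) of the genes measured in each list (circles; open circles are bounds) and the median of the list (red bar), with the number of genes measured of those listed in brackets; dotted lines mark 2-fold. The median of the 10 chemokine genes lies at 1.06, that of the other chemokines at -0.21 and that of the receptors at 0.05. The 10 genes were chosen with earlier results of these data known.

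Markers of several cell types moved between the same arrays, and their part in the chemokine values was not tested. In bulk tissue, more cells of a type cannot be told apart from more RNA per cell. The counts of markers here and below stand beside 1.21% of all measured genes over 2-fold higher, 0.818% lower and 46.8% above 0. All 7 listed markers of CD11c-positive microglia were over 2-fold higher in CD47 KO, with a median log2 ratio of 2.65 and summed signals of 3340 in WT and 20296 in CD47 KO; the study had picked these genes in part from the same arrays. Clec7a, a receptor for fungal glucans, was 7.60-fold and Cst7, an inhibitor of proteases, at least 25.3-fold higher. Of 9 measured general microglial markers 6 were above 0 and 2 over 2-fold higher, with a median of 0.46. Their summed signals were 23543 in WT and 34085 in CD47 KO, of which Csf1r alone gave 15765 and 21740.5. The pair past 2-fold were Fcrls (log2 ratio 2.55) and Cx3cr1 (1.35), whereas Aif1 was 1.94-fold, Itgam 1.52-fold and Csf1r 1.38-fold higher. Below 0 were Tmem119 (log2 ratio -0.52), Sall1 (-0.21) and P2ry12 (-0.14).

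Markers of blood-borne cells were compared too. Of 7 measured monocyte and granulocyte markers 5 were above 0, 2 below and none past 2-fold, with a median of 0.22 and summed signals of 3528 in WT and 3983 in CD47 KO and with S100a8 1.11-fold, Ngp 1.63-fold and Ltf 1.48-fold higher and Plac8 1.25-fold and Mpo at least 1.04-fold lower. The defining monocyte gene Ccr2 was under the floor by its brightest probe set. Of its other probe sets, 1 was above the floor in WT only (113) and 1 in CD47 KO only (138). Of 11 lymphocyte and dendritic cell markers, Cd3e, Cd4, Cd79a, Ms4a1 and Flt3 were under the floor in both arrays and the 5 measured had a median of 0.19, with Cd8a at least 1.38-fold lower, Zbtb46 1.14-fold higher and Nkg7 at least 1.62-fold higher. Perivascular macrophage markers were below 0 for 6 of 7 genes (median -0.33, summed signals of 4763 and 4014), with Cd163 1.59-fold and Pf4 1.44-fold lower, and Ms4a7, which microglia also make on activation, 2.17-fold higher. Markers of endothelium and pericytes had a median of -0.19 (7 of 10 below 0, summed signals of 21041 and 18013). Kdr was 1.72-fold and Itm2a 1.19-fold lower and Kcnj8 1.38-fold higher, and Itm2a alone gave 15282 and 12791 of the sums. Markers of meninges and fibroblasts had a median of -0.18 (7 of 9 below 0, summed signals of 85502 and 80212). Aldh1a2 was 1.44-fold and Col1a1 1.43-fold lower, and Ptgds alone gave 44552 and 45766 of the sums. Neuron markers had a median of -0.93, with 4 of 10 over 2-fold lower, against 0.818% of all measured genes. Their summed signals were 17452 and 10003, and Nefm was 2.50-fold, Slc17a6 2.43-fold and Snap25 1.97-fold lower. Astrocyte and oligodendrocyte markers had medians of 0.14 and 0.11 with none past 2-fold, and Gfap was 1.43-fold and Opalin 1.54-fold higher.

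The same 5 members were past 2-fold in 6 of 9 other ways of processing. Most of these 6 had little scope to change that. A lower floor or none raised Ccl3 and altered no other member. Leaving out probe sets marked for cross-hybridisation altered no member. The median over probe sets could not alter Ccl2, Ccl3, Ccl4 and Ccl5, with 1 probe set each. Quantile normalization and loess altered every member and left the same 5 past the mark. The settings that shrink the ratios of dim signals lowered the number. It was 4, without Ccl2, under a floor at the 60th percentile, and 3 (Ccl3, Ccl4 and Ccl6) with 100 added to each signal. It was 6, with Cxcl14 besides, when each array was centred on its median.

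**Figure D5:**
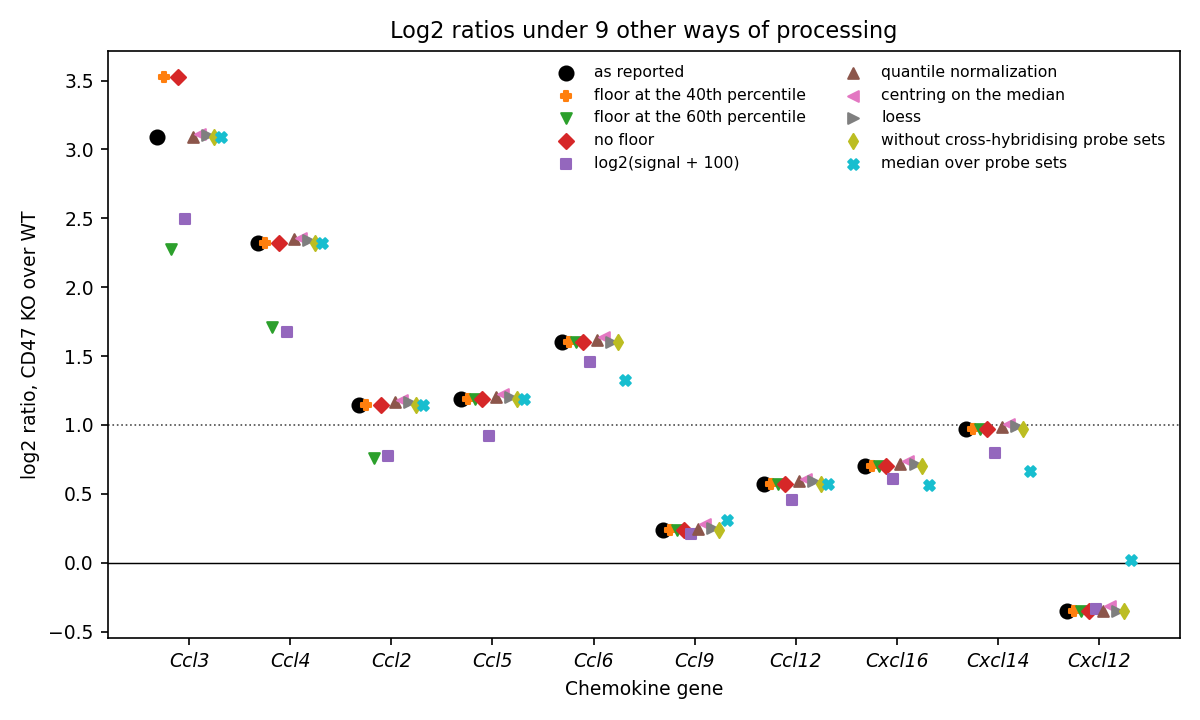
Log2 ratio of CD47 KO over WT (vertical) of each chemokine gene (horizontal) as reported (black circle) and under 9 other ways of processing (other symbols); the dotted line marks 2-fold. Ccl3 ranges from 2.28 to 3.52, Ccl9 from 0.21 to 0.31, and Cxcl12 is the gene whose value crosses 0, when the median over its probe sets is taken.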

How the data were processed

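RNA of the optic nerve and optic tract was measured by 1 array for WT and 1 for CD47 KO, each a pool of several mice. Biotinylated cRNA was hybridised to GeneChip Mouse Genome 430 2.0 arrays. The authors scanned the arrays with Command Console and then used Expression Console. The submitters' processing notes name MAS5, with no version given. Each deposited value is a linear intensity, the MAS5 signal of a probe set, and the mean with 2% trimmed at each end was 500.003 on both arrays. MAS5 signals near background are noisy, the reason for the floor.

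Of 45101 probe sets 64 controls were left out. The floor was set at the 50th percentile over both arrays, 23846 probe sets were above it in at least 1 array, and log2 ratios were taken after it. Genes came from the platform annotation (34945 probe sets with 1 symbol, 932 with several, 9160 with none, and 34741 matched by identifier to GRCm38.p6), each by its brightest probe set. With 1 array per genotype there was no test. The mark was 2-fold, as in the study. The members, the gene lists and the rule for named genes (all members, the known receptors, and of each list the genes past 2-fold or the 3 with the largest ratios, and of each cell type list the brightest gene and the next largest ratios) were chosen with earlier results of these data known, and genes named outside it were chosen after their values were seen. Receptors and other chemokines that share a probe set with other genes were not used. The alternatives were floors at the 40th and 60th percentile or none, 100 added to each signal, quantile normalization, centring on the median, loess (span 0.3), leaving out probe sets marked for cross-hybridisation, and the median over probe sets. The steps were tested on simulated data, with changes put only on genes brighter in WT than Ccl3, Ccl4, Ccl2 and Ccl5. The recovery of ratios for genes as dim as these was not simulated. Python 3.11.15, pandas 2.3.3, numpy 2.4.6, statsmodels 0.14.6 and matplotlib 3.10.9 were used. The number of arrays limits the precision.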

Additional observations from a re-analysis of the deposited data

How the results depend on the processing

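Of 207 values recomputed under the 9 alternatives, 182 stayed within 0.36 (log2, the spread between probe sets of a gene) or, for counts, within 1.5 times, and 25 moved. At a floor of the 40th percentile the log2 ratio of Ccl3 was 3.52, 173 of all genes were over 2-fold lower (102 as reported), and 1 further chemokine, Cxcl9, was over 2-fold higher. At the 60th percentile the ratios were 2.28 for Ccl3, 1.71 for Ccl4 and 0.76 for Ccl2, all bounds. There 55 genes were over 2-fold lower, 0 further chemokines were lower, 1 receptor and 0 signalling genes were over 2-fold higher. With no floor Ccl3 was 3.52, and 1287 genes were over 2-fold higher (151 as reported) and 1445 lower, since dim probe sets are then counted. There 2 further chemokines were higher and 5 lower, and 5 receptors were higher. With 100 added to each signal the ratios were 2.49 for Ccl3, 1.68 for Ccl4 and 0.78 for Ccl2, with 3 members over 2-fold higher, 37 genes over 2-fold lower, 0 further chemokines lower, 1 receptor higher and 1 signalling gene higher. By the median over probe sets Cxcl12 was 0.017, against -0.35 as reported. The median over the members stayed between 0.79 and 1.10. Quantile normalization, loess and leaving out probe sets marked for cross-hybridisation moved none of these values. The last of these could not alter the ratio of any member, since the brightest probe set of each carries no such mark. No paired analysis was possible because each genotype had 1 array. Signals near or under the floor in WT limit the ratios of Ccl3, Ccl4, Ccl2, Cxcr4, Rgs1 and Pik3r5.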
